A study of Mus with 6 samples.

Results

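Antigen presentation through MHC class II was examined by 10 genes in mouse pancreatic tumors grown in obese or lean hosts. The genes were taken by their Ensembl IDs from a list drawn up by function: the invariant chain Cd74, the class II chains H2-Aa, H2-Ab1 and H2-Eb1, the peptide-loading chains H2-DMa and H2-DMb1, the transcriptional regulator Ciita, and the costimulatory genes Cd80, Cd86 and Cd40. All 10 were among the 15646 genes of the count table, and all 10 passed the filter on low counts that left 14348 genes for testing. The rule that names them uses no measured value, but the list was chosen with earlier results of these data known. The symbols come with the list and are not in the count table.

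RNA was extracted from tumors of KPC1199, a mouse pancreatic ductal adenocarcinoma line, implanted orthotopically, that is, in the pancreas. The obese group (3 libraries, named obese 1, 3 and 4 by the number in the title) came from ob/ob mice, which lack functional leptin. The lean group (3 libraries, lean 1, 2 and 3) came from wild-type mice. All 6 tumors were thus of the same line; the labels name no age, sex or strain of the hosts and no treatment. Titles that start with ND were taken as lean because the design names only these 2 kinds of host. No label says that the libraries came from separate mice, so the spread behind each p-value may be partly technical.

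MHC class II molecules are pairs of an alpha and a beta chain that present peptides from taken-up proteins to CD4+ T cells. The invariant chain occupies the peptide groove while the pair matures, and the DM pair then helps to exchange its remnant for a peptide. Ciita switches these genes on, constitutively in dendritic cells and B cells and after interferon-gamma in many other cells. A naive T cell also needs costimulation through its receptor CD28, which binds CD80 and CD86 on the presenting cell, while CD40 receives the T cell's signal in return.

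The libraries held 7122533 to 8521244 counts. On the principal components of all genes tested, the groups lay apart on the first axis, and obese 3 lay apart from the other 5 libraries on the second (-37.7, others -6.45 to 17.5). Marker genes of dendritic cells, B cells, macrophages, T cells and tumor epithelium had been listed by symbol. The reference table pairs none of its 49997 symbols with an Ensembl ID, so these lists and other genes of the pathway were not analysed here, and the labelled tissue was not checked against its markers. The part of a different cell content in any result was not tested. In whole-tumor RNA, fewer presenting cells and less class II RNA per cell cannot be told apart.

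None of the 10 genes passed the test for a difference between tumors of obese and lean hosts (edgeR quasi-likelihood test, Benjamini-Hochberg adjusted p from 0.16 to 0.987), whereas 20.8% of all genes tested were called at an adjusted p under 0.05. The count was 0 in each direction, beside 10.3% of all genes tested called higher and 10.6% called lower in obese hosts. At an unadjusted p under 0.05 the count was also 0 of 10, beside 36.2% of all genes tested, and DESeq2 and limma-voom called 0 of 10 each. The fitted log2 fold change was above 0 for 5 of the genes and below 0 for 5, with a median of 0.0024, beside 0.010 over all genes tested. The genes' standard errors were wider than usual, with a median of 0.36 against 0.19 over all genes tested. Missing the threshold therefore does not show that levels were equal. The 95% interval lay within a 2-fold change in either direction for 5 genes (Cd74, H2-Aa, H2-Ab1, H2-Eb1 and H2-DMb1) and within 1.5-fold for 1 of them, Cd74.

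**Figure D1:**
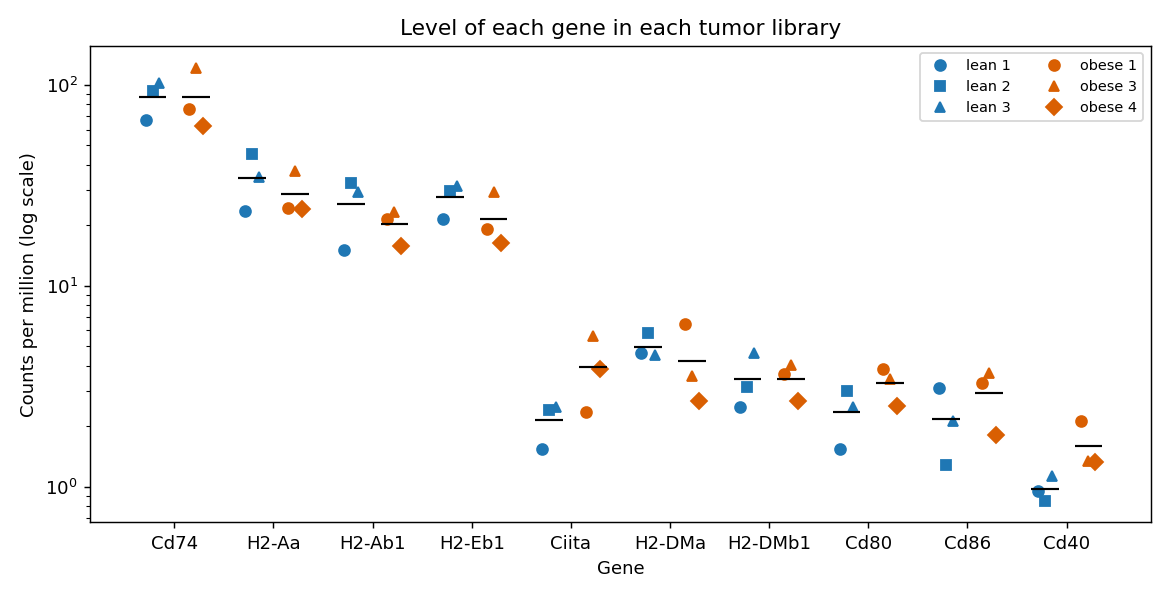
Level of each of the 10 genes in each tumor library, in CPM on a log axis, with lean libraries in blue and obese libraries in orange; marker shapes give the library number and black bars the group means (n = 3 each). CPM are not divided by transcript length, so heights are not compared between genes. The groups overlap for 9 genes, and only for Cd40 do the obese libraries all lie above the lean ones.

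**Figure D2:**
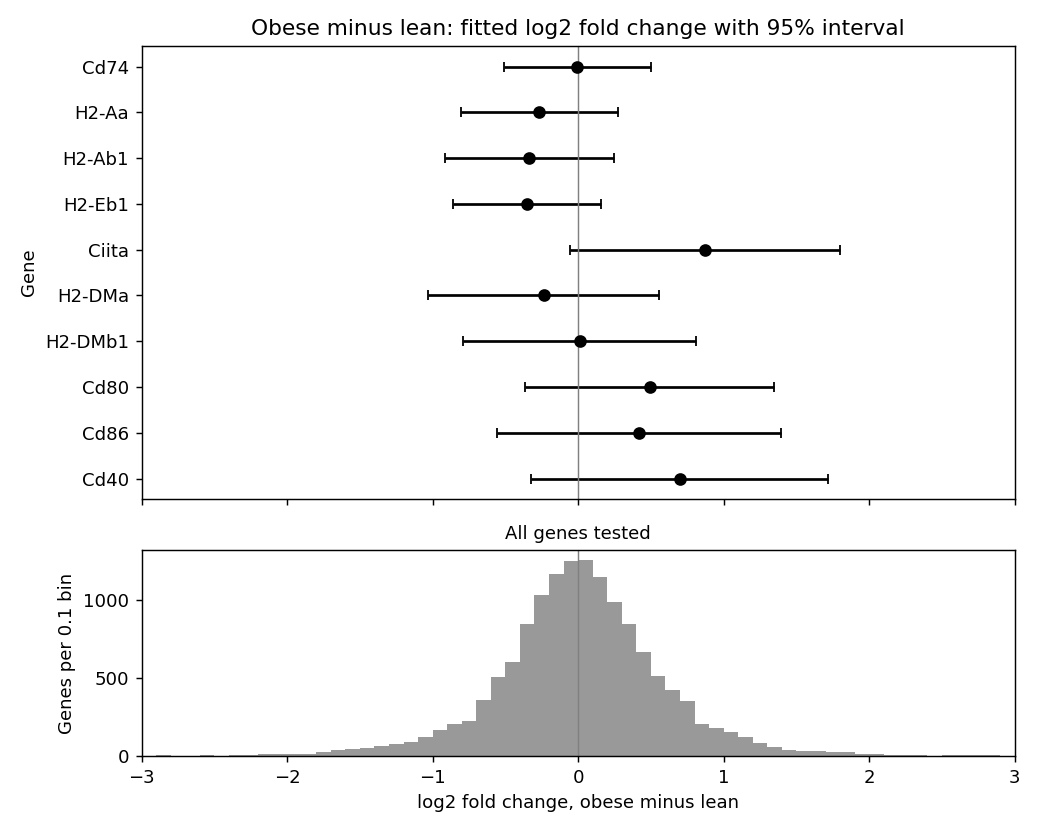
Upper panel: fitted log2 fold change of each gene, obese minus lean, with its 95% interval from the edgeR quasi-likelihood fit. Lower panel: the number of genes per bin of 0.1 over all genes tested; values beyond the axis are not drawn. The interval of each of the 10 genes includes 0.

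Cd74 (ENSMUSG00000024610.15), the chaperone of class II assembly and also a receptor for the cytokine MIF, had close means in both groups. Its level in CPM (counts per library size scaled by TMM factors, not divided by length) was 66.6, 93.2 and 102 in lean 1, 2 and 3 and 75.9, 122 and 62.3 in obese 1, 3 and 4. The obese group held both the highest and the lowest library, so its range enclosed that of the lean group. The mean was 87.2 ± 18.3 CPM for lean and 86.7 ± 31.4 CPM for obese hosts (SD, n = 3 each). The log2 fold change was -0.0065 (95% interval -0.51 to 0.50; edgeR adjusted p = 0.987). The interval leaves a fold between 0.701 and 1.41. The sign of so small a value was not stable: it was above 0 with upper-quartile factors (0.028) and with total counts only (0.064). Without obese 3 the log2 fold change was -0.33 and without obese 4 it was 0.18.

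The genes of the classical class II pairs had lower means in obese tumors, and the groups overlapped for each of them. H2-Aa (ENSMUSG00000036594.15), the alpha chain of the I-A molecule, was at 23.5, 45.3 and 34.8 CPM in lean 1, 2 and 3 and at 24.5, 37.4 and 24.0 CPM in obese 1, 3 and 4. Lean 1 was the lowest of the 6 libraries, and obese 3 lay above lean 3. The group means of 34.5 ± 10.9 and 28.7 ± 7.61 CPM (SD, n = 3 each) gave a log2 fold change of -0.27 (95% interval -0.80 to 0.27; edgeR adjusted p = 0.464). It was -0.027 without lean 2 and -0.50 without obese 3, and the replicate block turned it to 0.084. That block takes the library number as a factor, so its group difference rests on lean 1, lean 3, obese 1 and obese 3.

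H2-Ab1 (ENSMUSG00000073421.6), the beta chain of the same molecule, was at 15.1, 32.5 and 29.2 CPM in the lean libraries, in number order, and at 21.6, 23.2 and 15.8 CPM in the obese ones. Lean 1 was the lowest of the 6 libraries, while lean 2 and lean 3 were the highest. The means were 25.6 ± 9.25 and 20.2 ± 3.90 CPM (SD, n = 3 each), with a log2 fold change of -0.34 (95% interval -0.92 to 0.25; edgeR adjusted p = 0.389). It was -0.13 without lean 2 and -0.61 without lean 1 (edgeR adjusted p = 0.0581, over the alternatives 0.0581 to 0.86), and the replicate block turned it to 0.082.

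H2-Eb1 (ENSMUSG00000060586.11) encodes the beta chain of the I-E molecule. It was at 21.6, 29.5 and 31.5 CPM in lean 1, 2 and 3 and at 19.1, 29.4 and 16.3 CPM in obese 1, 3 and 4. Obese 1 and obese 4 lay below all lean libraries, whereas obese 3 was close to lean 2. The means were 27.6 ± 5.25 and 21.6 ± 6.88 CPM (SD, n = 3 each), with a log2 fold change of -0.35 (95% interval -0.86 to 0.15; edgeR adjusted p = 0.296). Its call turned on 1 library: without obese 3 the log2 fold change was -0.63 and passed the test (edgeR adjusted p = 0.0467; 0.0467 to 0.698 over its alternatives). No other gene of the 10 passed in any of the alternatives tried. Without obese 3 the count was thus 1 of 10.

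Summed over Cd74, H2-Aa, H2-Ab1 and H2-Eb1, the level was 127, 201 and 197 CPM in lean 1, 2 and 3 and 141, 212 and 118 CPM in obese 1, 3 and 4. Each group thus held libraries near both ends of this range. Lean 1, obese 1 and obese 4 were low and lean 2, lean 3 and obese 3 were high, so the libraries differed more within a group than the group means did.

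The chains of the DM pair had few counts and did not rank the libraries alike. Counting error (1 over the square root of the count) was 13.5% to 21.3% per library for H2-DMa and 16.4% to 21.8% for H2-DMb1. H2-DMa (ENSMUSG00000037649.10) counts were 39, 41 and 36 in lean 1, 2 and 3 and 55, 29 and 22 in obese 1, 3 and 4, so obese 1 was the highest of all and the other obese libraries were the lowest. Its means of 4.99 ± 0.727 and 4.22 ± 1.98 CPM (SD, n = 3 each) gave a log2 fold change of -0.24 (95% interval -1.03 to 0.56; edgeR adjusted p = 0.675). For H2-DMb1 (ENSMUSG00000079547.4) the counts were 21, 22 and 37 in the lean and 31, 33 and 22 in the obese libraries, with the highest level in lean 3. The means were 3.42 ± 1.10 and 3.44 ± 0.711 CPM (SD, n = 3 each), and the log2 fold change was 0.011 (95% interval -0.79 to 0.81; edgeR adjusted p = 0.986). Its sign changed to below 0 without lean 1, without lean 2, without obese 1 or without obese 3. The mouse genome holds a near-identical neighbour of this gene, H2-DMb2, and no source used here says how reads shared by the copies were counted.

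Ciita (ENSMUSG00000022504.10), the regulator of all the class II genes above, had the largest fitted difference of the 10, and it did not pass the test. Its counts were 13, 17 and 20 in lean 1, 2 and 3 and 20, 46 and 32 in obese 1, 3 and 4. Obese 3 and obese 4 lay above the lean libraries, and obese 1, at 2.34 CPM, lay among them, between lean 1 at 1.54 and lean 3 at 2.50 CPM. The means were 2.15 ± 0.530 and 3.94 ± 1.64 CPM (SD, n = 3 each), a fold of 1.83 (log2 0.87, 95% interval -0.053 to 1.80; edgeR adjusted p = 0.16). The log2 fold change was above 0 in all 15 alternatives, from 0.53 without obese 3 to 1.14 without obese 1, with adjusted p from 0.106 to 0.444. Counting error alone was 14.7% to 27.7% per library at these counts (1 over the square root of the count).

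The costimulatory genes had few counts and higher means in obese tumors, again without passing the test. Cd80 (ENSMUSG00000075122.5) counts were 13, 21 and 20 in the lean and 33, 28 and 21 in the obese libraries. Obese 1 and obese 3 were the highest, and obese 4, at 2.53 CPM, lay below lean 2 at 2.98 CPM. The means were 2.34 ± 0.733 and 3.28 ± 0.680 CPM (SD, n = 3 each) and the log2 fold change was 0.49 (95% interval -0.36 to 1.35; edgeR adjusted p = 0.392).

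Cd86 (ENSMUSG00000022901.13), the other ligand of CD28, had 26, 9 and 17 counts in lean 1, 2 and 3 and 28, 30 and 15 in obese 1, 3 and 4. Lean 1 was close to the 2 high obese libraries, and obese 4 lay between lean 2 and lean 3. The means were 2.16 ± 0.905 and 2.92 ± 0.981 CPM (SD, n = 3 each), and the log2 fold change was 0.42 (95% interval -0.56 to 1.39; edgeR adjusted p = 0.532). It was 0.16 without lean 2 and 0.76 without lean 1.

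Cd40 (ENSMUSG00000017652.16), the receptor through which T cells activate presenting cells, had the fewest counts of the 10, with 8, 6 and 9 counts in the lean and 18, 11 and 11 in the obese libraries. It was the 1 gene of the 10 whose groups did not overlap, at 0.852 to 1.13 CPM for lean and 1.33 to 2.11 CPM for obese hosts. Over all genes tested, the groups did not overlap for 40.3%; 20.3% lay wholly above the lean libraries in the obese ones, and 17.5% did so among the 3467 genes with a mean under 6 CPM. A share of 1 in 10 is thus not above this background. The means of 0.976 ± 0.139 and 1.59 ± 0.447 CPM (SD, n = 3 each) gave a fold of 1.62 (log2 0.70, 95% interval -0.32 to 1.72; edgeR adjusted p = 0.304). Counting error was 23.6% to 40.8% per library.

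Summed over Cd80, Cd86 and Cd40, the level was 5.58, 5.11 and 5.76 CPM in lean 1, 2 and 3 and 9.26, 8.44 and 5.67 CPM in obese 1, 3 and 4. Obese 1 and obese 3 stood above all lean libraries, and obese 4 lay within their range. The intervals of Ciita, Cd80, Cd86 and Cd40 include a doubling. These genes and the DM chains have low CPM, where fewer genes were called: among genes with a mean under 6 CPM 12.0% were called, against 25.0% of those between 20 and 100 CPM, the range of the other 4 genes. The limits of 6, 20 and 100 CPM were set after the values were seen.

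**Figure D3:**
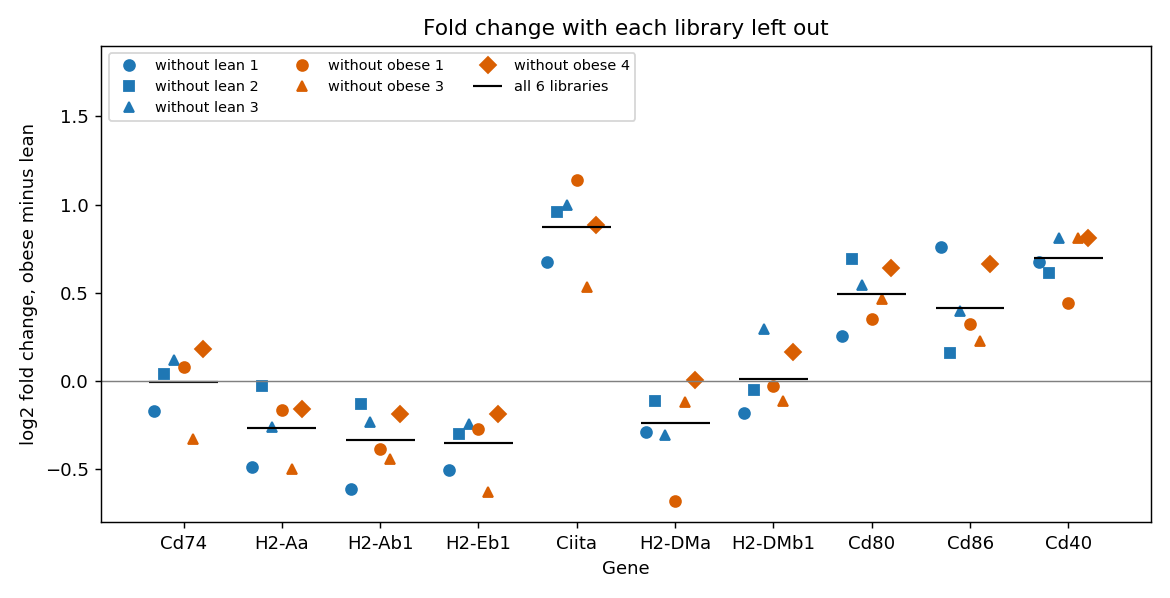
Log2 fold change of each gene (obese minus lean) with 1 library left out at a time, beside the value from all 6 libraries (black bars). Points for Ciita, Cd80, Cd86 and Cd40 all lie above 0 and those for H2-Aa, H2-Ab1 and H2-Eb1 all lie below it, while those for Cd74, H2-DMa and H2-DMb1 fall on both sides.

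Ratios between genes within a library do not depend on how libraries are scaled to each other. The exact permutation test over 3 against 3 libraries cannot go below p = 0.1 (two-sided), so none of the 8 ratios could pass. All of these except H2-DMa over H2-DMb1 and Cd80 over Cd86 share H2-Ab1 as denominator and are not independent. The ratio of the I-A chains, H2-Aa over H2-Ab1 counts, had close means, at a log2 of 0.46 ± 0.19 in lean and 0.49 ± 0.27 in obese libraries (SD, n = 3 each; exact permutation p = 0.9, adjusted p = 0.9). For the DM pair the values were 0.88, 0.88 and -0.039 in lean 1, 2 and 3 and 0.82, -0.18 and 0 in obese 1, 3 and 4 (exact permutation p = 0.3, adjusted p = 0.64). The high and low values of the DM ratio thus occurred in both groups.

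Ciita relative to H2-Ab1 was the 1 ratio of the 8 whose groups did not overlap. Its log2 was -3.24, -3.71 and -3.51 in lean 1, 2 and 3 and -3.17, -2.03 and -2.02 in obese 1, 3 and 4. Obese 1 lay just above lean 1, and the other 2 obese libraries lay more than 1 unit higher. Counting error of Ciita alone was 14.7% to 27.7% per library. The share of other gene pairs without overlap was not computed, so 1 of 8 has no background beside it. The mean difference was 1.08, a 2.11-fold higher ratio (exact permutation p = 0.1, the smallest possible, adjusted p = 0.64 over 8 ratios). It was 0.89 to 1.46 with each library left out. Cd40 and Cd86 relative to H2-Ab1 differed by 0.93 and 0.73 on the log2 scale with overlapping groups (exact permutation p = 0.2 and 0.4, adjusted p = 0.64 each). With each library left out, the difference was 0.64 to 1.25 for Cd40 and 0.19 (without lean 2) to 1.36 (without lean 1) for Cd86. The difference was 0.24 for Cd74 over H2-Ab1, -0.096 for H2-Eb1 over H2-Ab1 and 0.058 for Cd80 over Cd86 (exact permutation p = 0.4, 0.7 and 0.9; adjusted p = 0.64, 0.9 and 0.9).

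**Figure D4:**
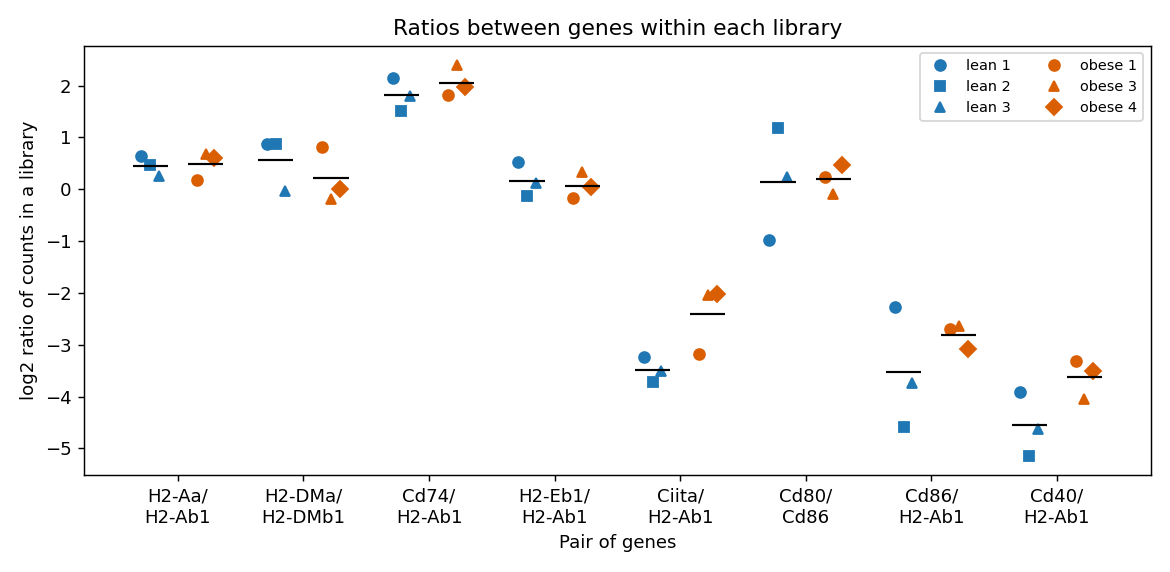
Log2 ratio of the counts of 2 genes (0.5 added to each count) within each library, with lean libraries in blue, obese libraries in orange and black bars at the group means (n = 3 each). Only the ratio of Ciita to H2-Ab1 separates the groups, with obese 1 at -3.17 just above lean 1 at -3.24. The share of other gene pairs that separate the groups was not computed.

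Across the 6 libraries, Cd74, H2-Aa, H2-Ab1 and H2-Eb1 varied together. Pearson's r of log2 CPM was 0.744 to 0.884 over their 6 pairs, and 0.771 to 0.9995 after each group's mean was subtracted. H2-DMb1 went along with them (r 0.496 to 0.805 over 4 pairs), and H2-DMa less so (0.121 to 0.480). For Ciita the range was 0.0917 to 0.485 over 4 pairs, and 0.485 to 0.776 with the group means subtracted. The costimulatory genes gave r of -0.475 to 0.503 over 12 pairs with the same 4 genes, 7 of them below 0, and of -0.336 to 0.959 with the group means subtracted. They were not alike in this: Cd80 had r of 0.109 to 0.503 with the 4 genes and 0.637 to 0.959 with the group means subtracted. The subtracted values were -0.325 to 0.172 for Cd86 and -0.336 to 0.143 for Cd40. These are descriptions over 6 points that share their libraries and scaling, and r of the genes with few counts also carries their counting error.

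**Figure D5:**
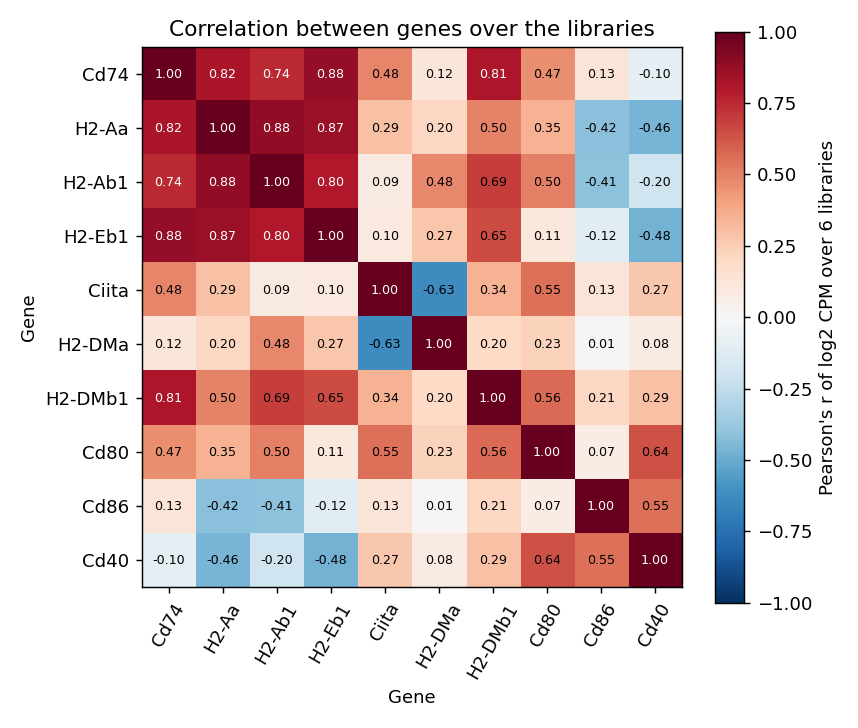
Pearson's r between the genes' log2 CPM over the 6 libraries, red above 0 and blue below, with the value in each square. The block of Cd74, H2-Aa, H2-Ab1 and H2-Eb1 at the upper left holds values from 0.74 to 0.88, and Cd86 and Cd40 are pale or blue against it.

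Among the 14347 other genes tested, H2-Eb1 ranked 120th by its r with Cd74 (0.880), H2-Aa 294th (0.816), H2-DMb1 325th (0.805) and H2-Ab1 541st (0.744). Ciita and Cd80 ranked 2007th and 2159th, and Cd86, H2-DMa and Cd40 ranked 5613th, 5687th and 8474th. With 6 libraries 83 genes exceeded an r of 0.9. Outside the list, the genes most like Cd74 were ENSMUSG00000022824.12 (r = 0.993) and ENSMUSG00000027792.11 (r = 0.985), and those most opposed were ENSMUSG00000036006.20 (r = -0.995) and ENSMUSG00000098134.1 (r = -0.993). They were picked for their likeness to Cd74, so no group difference of theirs is read.

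All 10 symbols were found in the RefSeq gene table of the mouse assembly GRCm38.p6, the build named for these counts. On chromosome 17, 5 of the genes lie within 197 kb: H2-DMa (34119693 to 34139101), H2-DMb1 (34153191 to 34160229), H2-Ab1 (34263227 to 34269418), H2-Aa (34282744 to 34287823) and H2-Eb1 (34305867 to 34316674). This is the class II region of the mouse MHC. Within it r was 0.803 to 0.884 among the 3 classical chains. Between these chains and the DM genes it was 0.496 to 0.689 for H2-DMb1 and 0.204 to 0.480 for H2-DMa. Cd74, which lies outside the region, had r of 0.744 to 0.880 with the same chains. The DM genes had few counts, and a link between r and position was not tested. Ciita (10480014 to 10531064), Cd86 (36568956 to 36666158) and Cd80 (38457430 to 38495958) are on chromosome 16. Cd40 is on chromosome 2 (165055614 to 165071654) and Cd74 on chromosome 18 (60803849 to 60812652).

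Some of these genes overlap others in the annotation, by their spans from start to end. H2-DMa overlaps Brd2, a gene for a chromatin reader, Ciita overlaps Dexi and a long noncoding RNA, Cd80 overlaps 2 pseudogenes and a long noncoding RNA, and Cd74 overlaps a microRNA. Whether exons overlap was not examined. No source used here says which parts of a gene were counted or how strand was handled. Whether reads of these genes and of their overlapping partners were told apart is thus not known.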

How the data were processed

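Libraries were made from total RNA after ribosomal depletion, per the labels' protocols. The authors deposited raw counts per gene for 6 libraries; CASAVA, STAR and Subread with GRCm38 are named per the submitters' processing notes, without versions or settings. The lowest sum of a listed gene is 11, so scarcer genes are absent. Every column carried the title of 1 sample. Counts were filtered with edgeR 4.0.16 (R 4.3.3; minimum count 10, minimum total 15), scaled by TMM and compared by a two-sided quasi-likelihood F test with no covariate and Benjamini-Hochberg adjustment over 14348 genes. The standard error is the size of the log2 fold change over the square root of F. Correlations used log2 CPM with a prior count of 2. The fit was checked on simulated data. Alternatives were other scalings and filters, limma-voom (limma 3.58.1), DESeq2 1.42.0, a robust fit, a replicate block and leaving out each library. All 10 list members were named whatever their values, with the 4 genes most like or unlike Cd74. The members and lists were chosen with earlier results of these data known.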

Additional observations from a re-analysis of the deposited data

How the results depend on the processing

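The count of called genes among the 10 stayed at 0 under all settings but 1 of those tried: it ranged from 0 to 1 with each library left out, H2-Eb1 being called without obese 3. Over the whole table, leaving out 1 library gave 1179 to 3066 calls, against 2991 with all 6. The replicate block gave 2087 calls, with 0 among the 10, and the sign changed for Cd74 (0.23), H2-Aa (0.084), H2-Ab1 (0.082) and H2-DMa (0.089). Lean 2 and obese 4 are each alone in their block. The group difference in this fit thus rests on lean 1, lean 3, obese 1 and obese 3, and is not one over all 6 libraries. Only numbers 1 and 3 occur in both groups. The deviations of the like-numbered libraries from their group means correlated at 0.090 and 0.074. Those of lean and obese libraries with unlike numbers correlated lower, at -0.13 to 0.066. All these values are small, so the pairing of samples by number could not be decided. Cd74 was also above 0 with upper-quartile factors (0.028) and total counts only (0.064). With each library left out, log2 fold changes ranged from -0.33 to 0.18 for Cd74, -0.68 to 0.0079 for H2-DMa, and -0.18 to 0.30 for H2-DMb1. Log2 ratios then ranged from -0.068 to 0.19 for H2-Aa over H2-Ab1, -0.25 to 0.081 for H2-Eb1 over H2-Ab1, and -0.50 to 0.57 for Cd80 over Cd86. The cause of these changes was not tested. No ratio depends on scaling. Depth limits the scarce genes: Cd40 had 6 to 18 counts per library.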
